A study of Triticum aestivum with 18 samples.

Results

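Grain of wheat (Triticum aestivum) whose spike had been cut back by 0.5 during the grain filling stage was compared with grain of normally growing plants at the same stage. The loci described are those that carry a gene name and reached an FPKM of 1 in 3 or more of the 6 libraries compared. FPKM counts sequenced fragments per kilobase of a transcript, set against all fragments mapped in the same library. There were 35326 such loci, of 97029 loci with a gene name and 115478 loci in all.

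The study sequenced poly(A) RNA of grain and leaf in 18 libraries that formed 6 groups of 3. The groups used here were grain after partial removal of the spike, grain of normally growing plants (control) and, for one comparison, leaf after partial removal and control leaf. Grain of plants with a shaded spike and no leaves left (shaded and defoliated) is given for a single locus and entered an alternative fit of all grain libraries. Cultivar, growing conditions, the day of the cut and the day of harvest are not stated in the labels. Nor do they say which end of the spike was taken. Whether the libraries of a group stem from different plants is not stated either, and the p-values therefore reflect only the spread among these libraries (n = 3 per group throughout), which may be technical. No spike was cut without losing grains, so the cutting of the spike and the loss of its grains cannot be told apart.

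A filling wheat grain imports sucrose, splits it in the endosperm with sucrose synthase and turns it into ADP-glucose, from which starch synthases, branching enzymes and debranching enzymes build the starch granule inside the amyloplast. The same cells make the gluten proteins, gliadins and glutenins, together with smaller amounts of inhibitors, thionins, serpins and beta-amylase that are laid down with them. Taking grains off the spike leaves fewer sinks for the assimilate of the plant, and the comparison asks what the remaining grains do at the level of transcripts.

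The levels below are scaled FPKM, that is FPKM made comparable between the 6 libraries by a median ratio, and the differences are partial removal minus control on the log2(scaled FPKM + 1) scale, which understates the change of low loci. Libraries of both groups are given in the order 1, 2, 3. The FPKM sums of the 6 libraries lay between 484689 and 565361, and the number of reads was unknown, so the depth behind a value could not be given. Control library 1 stood apart. It had 55.43% of its FPKM on loci without a gene name, against 24.35% to 31.52% in the other 5 libraries, and its scaling factor was 0.7786, against 0.9609 to 1.201. Gluten transcripts were abundant in all 6 libraries and the Rubisco small chains, markers of green tissue, stayed between 0.339 and 10.3 scaled FPKM, which fits the label grain.

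Few loci changed singly. Limma called 14 of the 35326 named loci at an adjusted p under 0.05 (0.0396%), 7 higher and 7 lower after partial removal, and each by at least 2-fold. The median difference of all named loci was -0.00751, with quartiles of -0.132 and 0.106, and 48.3% of them lay above 0. At an unadjusted p under 0.05 there were 816 higher and 1731 lower loci. Groups that did not overlap, meaning that every library of one group lay above every library of the other, were found for 1963 loci in the higher direction (5.56%) and 2815 in the lower direction (7.97%). Beyond a 2-fold difference, called or not, 136 loci were higher and 427 lower. Of the 14 calls, 8 were loci listed at exactly 0 in all 3 libraries of a group, where no fold is given, and an exact 0 in a table without counts can be a failed estimate. Across the named loci, 256 were listed at 0 in some library while at 5 or more in another, and 7 of these encode ribosomal proteins, histones or tubulins.

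The called locus with the smallest adjusted p was MSTRG.5663 on 1BL, described as EC protein I/II, the zinc-binding metallothionein known from wheat embryos. It stood at 52.2, 48.5 and 45.2 scaled FPKM after partial removal and was listed at 0 in all 3 control libraries (limma adjusted p = 8.73e-06). In the deposited FPKM of shaded and defoliated grain, a further group of the study, it was 57.72 and 44.46 in libraries 1 and 3 and 0 in library 2, so presence and absence of this locus also divided the libraries of a single treatment. The fasciclin-like arabinogalactan protein FLA7 (MSTRG.22331, 2DS), a cell-surface glycoprotein named after its values were seen, stood at 2.50, 4.38 and 3.51 after partial removal and at 0 in all controls (adjusted p = 0.0203).

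Among the 7 loci that fell, 2 had a description. Probable galacturonosyltransferase 11 (MSTRG.39637, 4BS), of a family that builds pectin, stood at 0.220, 0.252 and 0.0548 scaled FPKM after partial removal, against 6.21, 5.37 and 6.35 in controls. The groups were far apart, with a difference of -2.57 ± 0.118 (SE, limma adjusted p = 0.00127). A cysteine proteinase inhibitor (MSTRG.21437, 2DS), of the cystatins that restrain papain-type proteases, was listed at 0 in all 3 partial removal libraries, against 9.30, 25.1 and 23.4 in controls (adjusted p = 0.0208). Its list of 25 cysteine proteinase inhibitors held no other call and had a median difference of -0.0397, and the sums of the list overlapped between the groups.

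The other 10 called loci have no description and are named here after their values were seen. A value of 0 in all controls was listed for MSTRG.8244 on 1DL, annotated by GO (Gene Ontology) as an ATPase, at 5.31, 5.07 and 5.67 scaled FPKM after partial removal, for MSTRG.9433 on 1DS at 8.14, 11.0 and 9.38, and for MSTRG.52191 on 5DL at 8.69, 6.31 and 11.6. MSTRG.850 on 1AL, annotated to regulation of the cell cycle, was measured in every library. It stood at 9.34, 9.83 and 10.6 after partial removal, against 2.21, 2.85 and 2.51 in controls (log2 1.64 ± 0.111 SE, adjusted p = 0.0107). MSTRG.29013 on 3B, annotated to the endoplasmic reticulum, was the most abundant called locus that fell: 9.81, 7.09 and 10.6 after partial removal, against 44.6, 55.1 and 61.4 in controls (log2 -2.43 ± 0.188 SE, adjusted p = 0.0187). MSTRG.42062 on 4DL, annotated as a DNA-binding transcription factor, and MSTRG.63008 on 6DL were listed at 0 in all partial removal libraries and reached 10.1 and 25.2 in control library 2. MSTRG.11677 on 2AL rose by 2.57 on the log2 scale. MSTRG.28942 on 3B fell by 3.09 and MSTRG.43452 on 4DS fell by 1.16. By subgenome the 14 calls lay 2 on A, 4 on B and 8 on D. Reads of the A, B and D copies of a gene (homoeologs) can be assigned to one another, so a called locus on a single arm may be an uncertain copy.

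**Figure D1:**
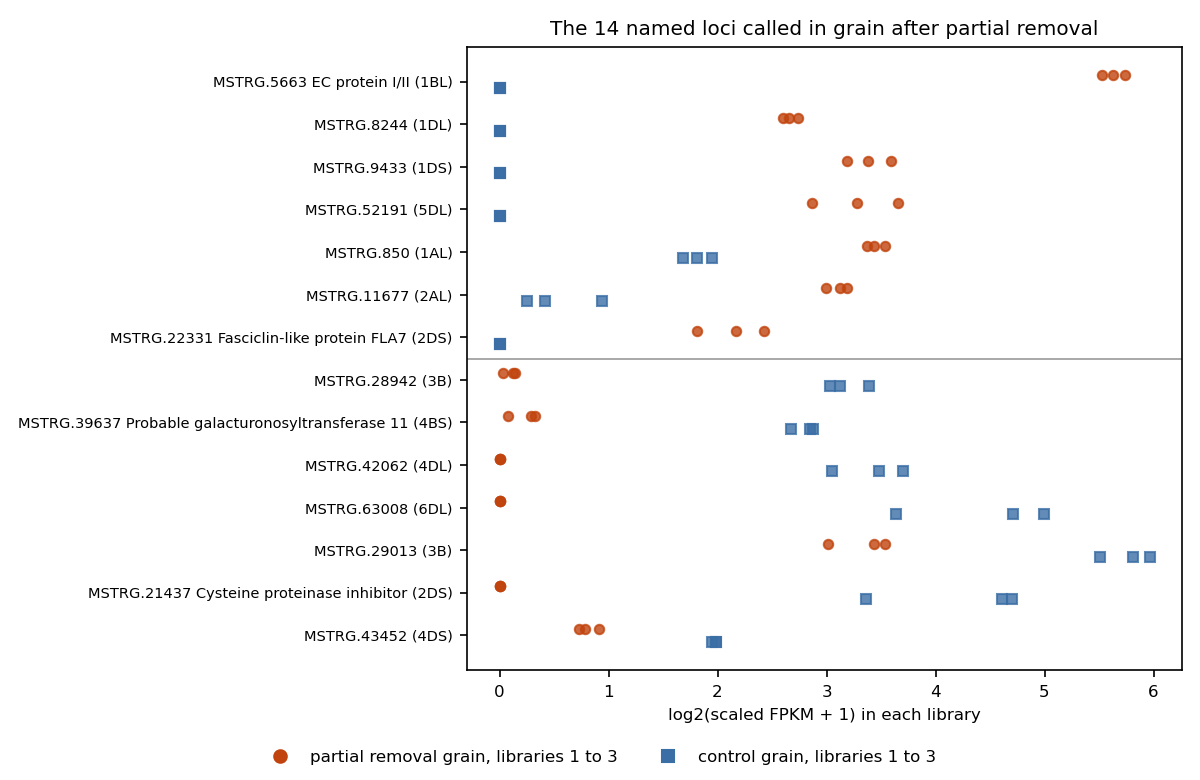
Level of the 14 called loci in each library, as log2(scaled FPKM + 1), with partial removal libraries as circles and control libraries as squares. The 7 loci above the line rose and the 7 below it fell, and in 8 of them all 3 libraries of a group sit at 0.

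Leaving out each of the 6 libraries in turn, 7 of the 14 calls stayed in every case (MSTRG.5663, MSTRG.8244, MSTRG.9433, MSTRG.52191, MSTRG.28942, MSTRG.39637 and MSTRG.42062). The number of called loci was 50 without control library 2, of which 15 were higher and 35 lower, 24 without control library 1 and 22 without partial removal library 3. Without scaling between libraries 13 loci were called, 8 higher and 5 lower.

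Shifts of gene classes were described from counts and medians, with no test of a class, beside the values for all named loci. Counts of loci without overlap are to be read against 5.56% higher and 7.97% lower over all named loci. The classes that lay furthest below all named loci were inhibitors with serpins, gliadins and glutenins, and starch synthesis. Those furthest above were light reactions with Rubisco, cell cycle and DNA replication, and jasmonate with lipoxygenases. Lipid transfer proteins with puroindoline, an abundant class of 26 grain loci, had a median of -0.125. Their sums overlapped, at 5848, 3485 and 14267 scaled FPKM after partial removal, against 4728, 12508 and 21873 in controls. Whether fewer cells of a type or less RNA per cell lay behind a lower level cannot be told apart in RNA from whole grains.

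**Figure D2:**
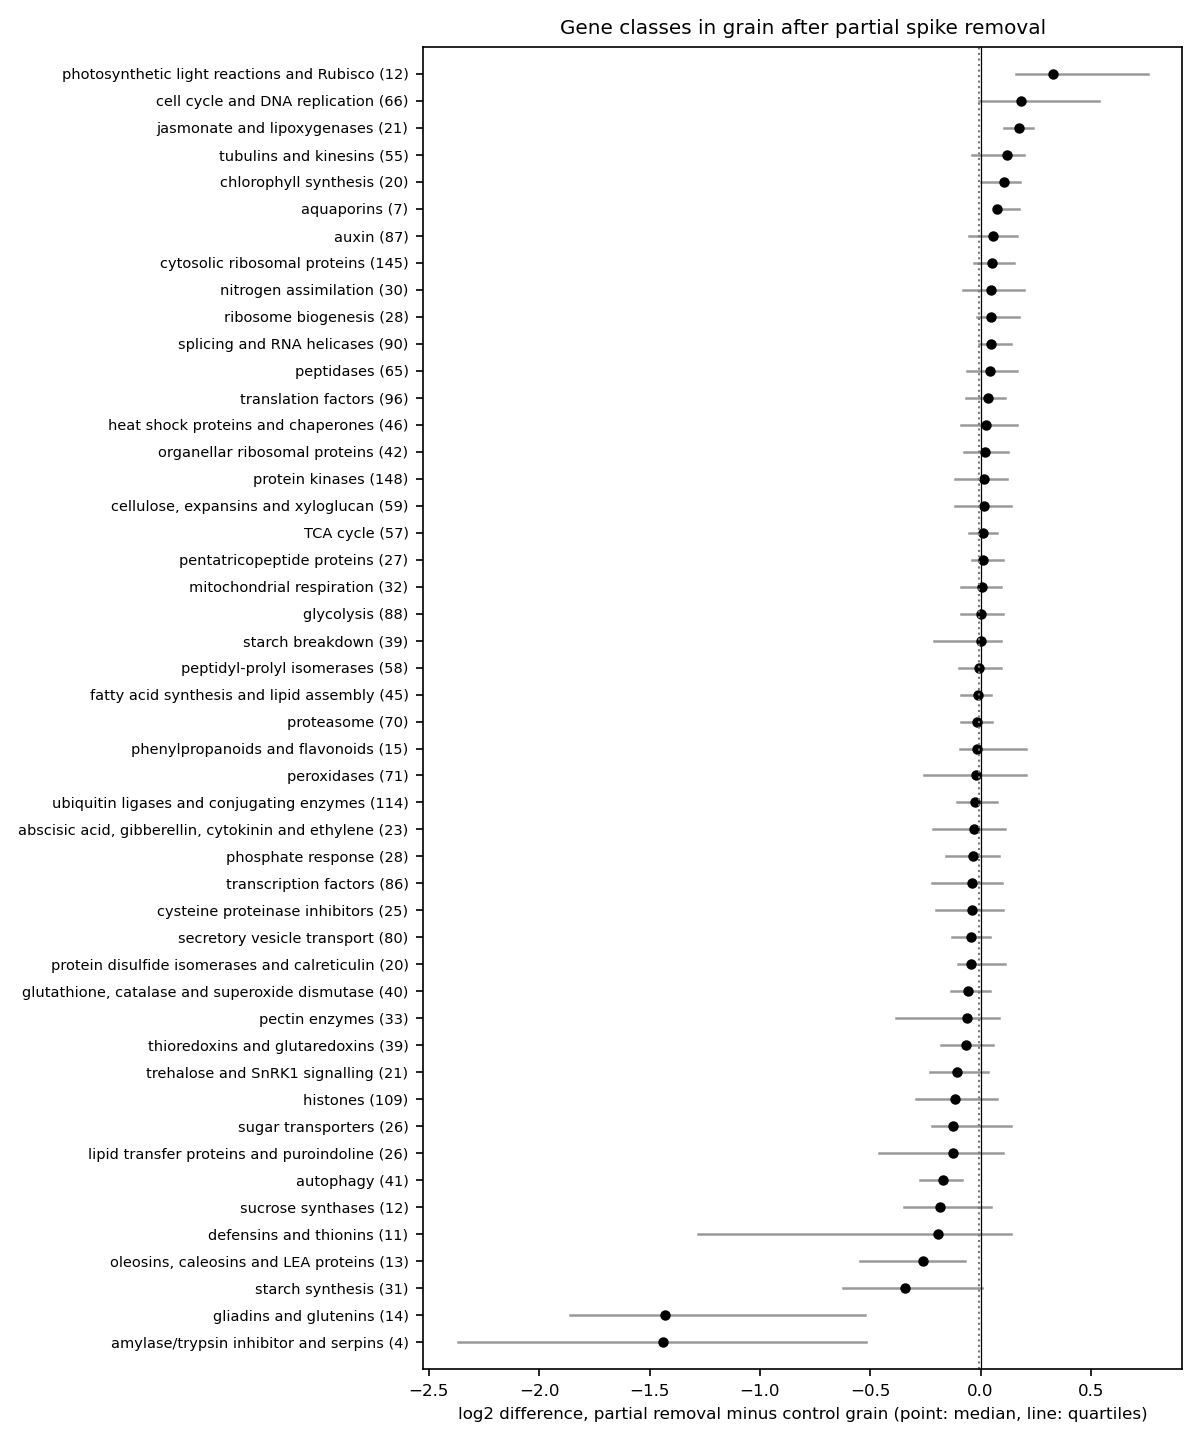
Median log2 difference (points) and quartiles (lines) of 48 gene classes, partial removal minus control grain, with the number of loci in brackets and the median of all named loci as a dotted line. Gliadins and glutenins lie at -1.43 and starch synthesis at -0.34, while glycolysis, the TCA cycle and the proteasome lie near 0.

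Gliadins and glutenins, the gluten proteins, were the abundant class with the largest shift. The 14 loci summed to 2371, 2599 and 3028 scaled FPKM after partial removal, against 6571, 4770.5 and 5757 in controls. All partial removal sums lay below all control sums, and their mean was 0.468 of the control mean. Of the 14 loci, 7 were lower with no overlap between the groups and none was higher so, 2 lay above 0, and the median difference was -1.43. No single locus passed the limma test (lowest adjusted p 0.309), and 4 were lower at an unadjusted p under 0.05.

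Gamma-gliadin 2 (MSTRG.10037, 1DS), the most abundant of them, stood at 399.0, 413 and 529 scaled FPKM after partial removal, against 1329, 778 and 1700.2 in controls. The groups did not overlap, with a difference of -1.44 ± 0.398 (SE, adjusted p = 0.483). The LMW-glutenin P3-6 (MSTRG.9570, 1DS), a low molecular weight glutenin, was listed at 0, 0 and 107 after partial removal, against 335, 135 and 255 in controls. It was called in the fit without partial removal library 3 (adjusted p = 0.00864), the library with the value of 107.

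Further members of the gluten list, named after their values were seen, had similar differences. The low molecular weight glutenin subunit MSTRG.6164 on 1BS stood at 248, 199.8 and 306 after partial removal, against 860.3, 461 and 762 in controls (-1.44 ± 0.341 SE). Gamma-gliadin 5 (MSTRG.5991, 1BS) stood at 134, 139.6 and 234, against 431, 381 and 523 in controls (-1.43 ± 0.298 SE). Some members went on and off between libraries of a group. The alpha/beta-gliadin MSTRG.58222 on 6AS was at 739, 847 and 954 after partial removal and at 0, 1459 and 0 in controls, and 7 of the 14 loci were listed at 0 in at least 1 library. Without control library 2, the control library in which it was present, MSTRG.58222 was called higher after partial removal (adjusted p = 0.000187). The 7 loci above 0 in all libraries summed to 1358, 1496 and 1527 after partial removal, against 5322, 2619 and 4139 in controls, again with no overlap and with a median difference of -1.44.

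The shift did not extend to all loci annotated as reserve proteins. The GO term nutrient reservoir activity, which marks seed storage proteins, held 52 loci with a median of -0.46, of which 19 were lower without overlap and none higher. Its summed level nevertheless overlapped between the groups, at 23910.0, 21991 and 26211 scaled FPKM after partial removal, against 26098, 26130.0 and 31530.2 in controls. The 38 loci of this term outside the gluten list had a median of -0.10, with 12 lower without overlap. The gluten list was matched on descriptions, so these 38 may include gluten proteins that carry no description. The 5 most abundant loci of the term, picked by their level after the values were seen, had a median difference of 0.0158. Of these, MSTRG.35759 on 4AL stood at 4781, 3682 and 5169.8 after partial removal, against 4040.3, 4196 and 6343 in controls, whereas MSTRG.78237, without an arm, stood at 449, 632 and 1136, against 3429, 1713 and 2838. The same term thus held very abundant loci whose groups overlapped and a locus that was lower in every partial removal library.

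**Figure D3:**
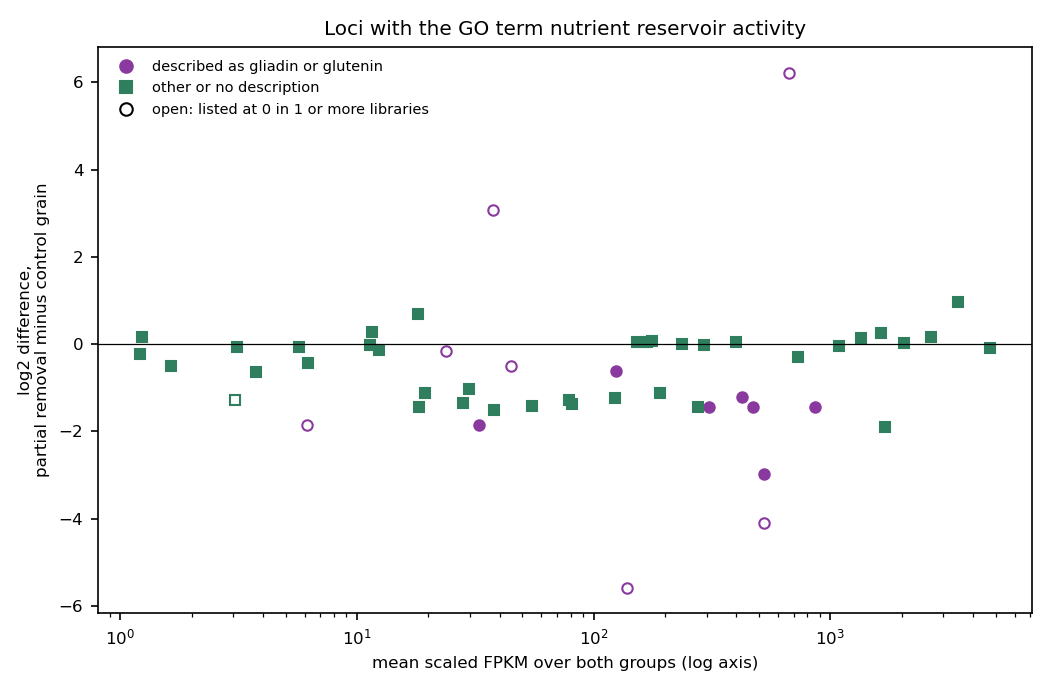
Log2 difference (partial removal minus control grain) against mean scaled FPKM over both groups on a log axis, for the 52 loci with the GO term nutrient reservoir activity. Circles are loci described as gliadin or glutenin, and squares are loci with another description or none. Loci listed at 0 in some library are open, and most of the most abundant squares lie near 0 while the filled circles lie below it.

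Small proteins laid down with the gluten were lower as well. Of 3 thionins, the cysteine-rich antimicrobial peptides of the endosperm, all were lower without overlap, and they summed to 277, 247 and 356 scaled FPKM after partial removal, against 1058, 587 and 909 in controls (0.344 of the control mean). The Type-5 thionin (MSTRG.9138) stood at 52.1, 63.8 and 49.7 after partial removal, against 292, 163 and 331 in controls, with a difference of -2.17 ± 0.296 (SE, limma adjusted p = 0.162). Without control library 2 it was called as lower (adjusted p = 0.0433), in a fit that also called MSTRG.58222 of the gluten list as higher. The other members of the list, the defensins, overlapped between the groups. The most abundant, Defensin-like protein 8 (MSTRG.51523, 5DL), was at 1026, 889 and 1122 after partial removal, against 965, 1188 and 1329 in controls. The defensin MSTRG.41481 on 4DL, named after its values were seen, was at 51.9, 0.428 and 0.0154, against 40.7, 45.9 and 39.5 in controls. Without partial removal library 1 limma called it as lower (adjusted p = 0.0028). Of the 11 loci of the list, 5 lay above 0.

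Serpins are protease inhibitors that accumulate in cereal endosperm. Serpin-N3.2 (MSTRG.53264, 5DL) stood at 15.4, 11.2 and 22.7 scaled FPKM after partial removal, against 147, 45.8 and 146 in controls. Every partial removal library was lower, with a difference of -2.59 ± 0.487 (SE, adjusted p = 0.249), and it was called as lower without control library 2 (adjusted p = 0.0485). That fit called a cysteine proteinase inhibitor as higher, MSTRG.32736 on 3DL (adjusted p = 0.00746), named after its values were seen, which stood at 11.1, 10.8 and 7.52 after partial removal and at 0, 15.4 and 0 in controls. The 3 serpins summed to 24.8, 22.9 and 30.2, against 195, 61.7 and 221 in controls. The alpha-amylase/trypsin inhibitor CM3 (MSTRG.38762, 4BL), an albumin of the endosperm, overlapped at 62.8, 53.1 and 87.1, against 145, 80.6 and 86.1 in controls.

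The wider GO term serine-type endopeptidase inhibitor activity had 60 loci, with a median of -0.24, 18 lower and 1 higher without overlap. Its member with the lowest adjusted p, MSTRG.50022 on 5BL, stood at 10.7, 13.3 and 12.3 after partial removal, against 27.1, 28.6 and 33.1 in controls (-1.22 ± 0.134 SE, adjusted p = 0.081). It carries no description and was picked after the values were seen.

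Markers of embryo and aleurone were listed beside these endosperm products. Of 13 oleosins, caleosins, dehydrins, Em proteins and globulins, 3 lay above 0 and the median was -0.26. They summed to 871 to 886 scaled FPKM after partial removal and to 725 to 1626 in controls, with control library 1 lowest. Without control library 1, left out after the values were seen, the median was -0.58. In that setting 6 of the 13 were lower without overlap (46.2%), where the share over all named loci is 16.5%. The sums then no longer overlapped, which follows from leaving out the lowest control and is no support for a difference. The abundant oleosin MSTRG.16573 (2BL), which coats oil bodies, stood at 276, 286 and 250.1, against 200.4, 669 and 654 in controls. Globulin 1 (MSTRG.4150, 1BL), an embryo storage protein, was lower in each partial removal library, at 20.7, 25.4 and 20.6, against 45.9, 50.1 and 104 in controls (-1.45 ± 0.312 SE, adjusted p = 0.315). The oleosin MSTRG.47574 (5BL) went the other way, at 144, 108 and 128, against 106, 10.3 and 0 in controls. The part of embryo and aleurone in the shift of the reserve proteins was not tested.

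Starch synthesis had the next lowest median of the 48 classes after gluten proteins and inhibitors with serpins. Its 31 loci summed to 249.97, 272 and 279 scaled FPKM after partial removal, against 483, 374 and 403 in controls. The sums did not overlap, and the mean after partial removal was 0.635 of the control mean. Of the 31, 15 were lower without overlap (48.4%) and none was higher so, 8 lay above 0, and the median was -0.34. No locus passed the limma test (lowest adjusted p 0.214), and 15 were lower at an unadjusted p under 0.05.

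The loci of ADP-glucose pyrophosphorylase, described as glucose-1-phosphate adenylyltransferase, supply ADP-glucose and are regarded as the main control step of starch synthesis. The most abundant, MSTRG.934 on 1AL, stood at 32.4, 37.9 and 36.4 scaled FPKM after partial removal, against 77.3, 56.8 and 64.3 in controls (-0.87 ± 0.162 SE, adjusted p = 0.247). All partial removal libraries were lower than all controls.

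The 9 loci of this enzyme, of which those besides MSTRG.934 are named after their values were seen, are given by chromosome group, with no test of a difference between the groups of copies. The copy on 1BL (MSTRG.4781) lay at -0.77, and the large subunit MSTRG.8933, which has no arm in the table, lay at -0.996 (21.9, 29.4 and 25.7, against 49.0, 46.5 and 61.1 in controls). The copies on the short arms of group 7 lay at -0.48 (MSTRG.74096), -0.44 (MSTRG.66656) and -0.27 (MSTRG.69935). These 6 were lower in every partial removal library. The copies on the long arms of group 5 overlapped, at -0.08 (MSTRG.49958), -0.03 (MSTRG.53489) and 0.04 (MSTRG.43850), and MSTRG.49958 stood at 3.14, 3.07 and 3.61 scaled FPKM, against 3.72, 3.51 and 3.28 in controls.

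Among the enzymes that shape the glucan, Starch branching enzyme I (MSTRG.64878, 7AL), which adds branch points, stood at 6.95, 7.80 and 9.18 scaled FPKM after partial removal, against 31.9, 13.2 and 20.6 in controls (-1.28 ± 0.294 SE, adjusted p = 0.353). Its groups did not overlap. Starch branching enzyme IIa (MSTRG.11210, 2AL), looked at for contrast after the values were seen, overlapped, at 17.3, 20.1 and 19.1, against 20.4, 19.2 and 15.4 in controls.

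The remaining starch loci are also given by isoform, as picked after the values were seen. The 3 loci of starch synthase 1, which extends short chains, lay at -0.70 (MSTRG.70713), -0.44 (MSTRG.66821) and -0.37 (MSTRG.74127), all without overlap. The starch synthase MSTRG.3852 on 1BL lay at -1.13 and MSTRG.73927 on 7DS at -1.04. The 3 loci of isoamylase 1, the debranching enzyme of the growing granule, were all lower without overlap, at -0.55, -0.54 and -0.34. The 3 loci described as granule-bound starch synthase 1 lay on the long arms of group 2 and overlapped, at -0.25, -0.11 and 0.02. Isoamylase 3 lay at 0.06 and 0.11. Isoforms were taken from the descriptions alone. Whether any of these isoforms differed from another was not tested.

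**Figure D4:**
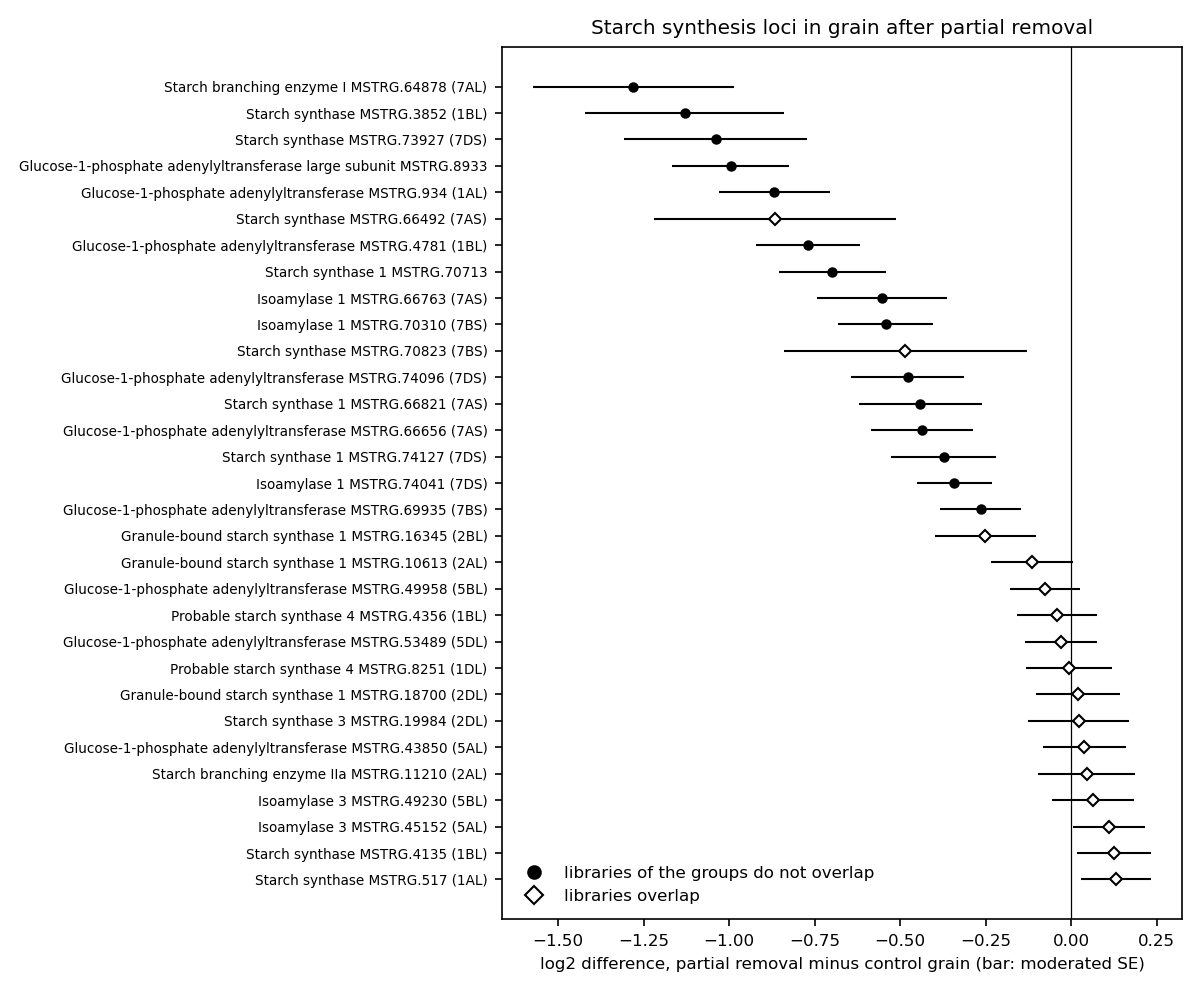
Log2 difference (partial removal minus control grain) with its moderated standard error for the 31 starch synthesis loci, filled where the libraries of the groups do not overlap. The 15 filled loci all lie below 0, from Starch branching enzyme I at -1.28 to a glucose-1-phosphate adenylyltransferase at -0.27.

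Starch breakdown as a class had a median of 0.0028 over 39 loci, 3 higher and 5 lower without overlap, but its abundant beta-amylases lay far lower. Endosperm beta-amylase is deposited during filling and acts at germination. MSTRG.37812 on 4BL stood at 237, 268 and 379 scaled FPKM after partial removal, against 1361, 642 and 1445 in controls (-1.90 ± 0.418 SE, adjusted p = 0.329). MSTRG.41026 on 4DL stood at 218, 222 and 314, against 1309, 551 and 1251 in controls (-1.96 ± 0.418 SE, adjusted p = 0.315). With MSTRG.44348 on 5AL (-1.77), added after its values were seen, they summed to 711, 758 and 1052, against 3969, 1777 and 4007 in controls, or 0.259 of the control mean. These 3 loci resemble one another in level, and reads may be shared between such copies. The other 36 loci of the list had a median of 0.0173, with 3 higher and 2 lower without overlap, while their sums were lower without overlap, at 133, 132 and 137 scaled FPKM, against 139, 137 and 163 in controls. With only loci that reached an FPKM of 5, the median of the class was -0.29.

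**Figure D5:**
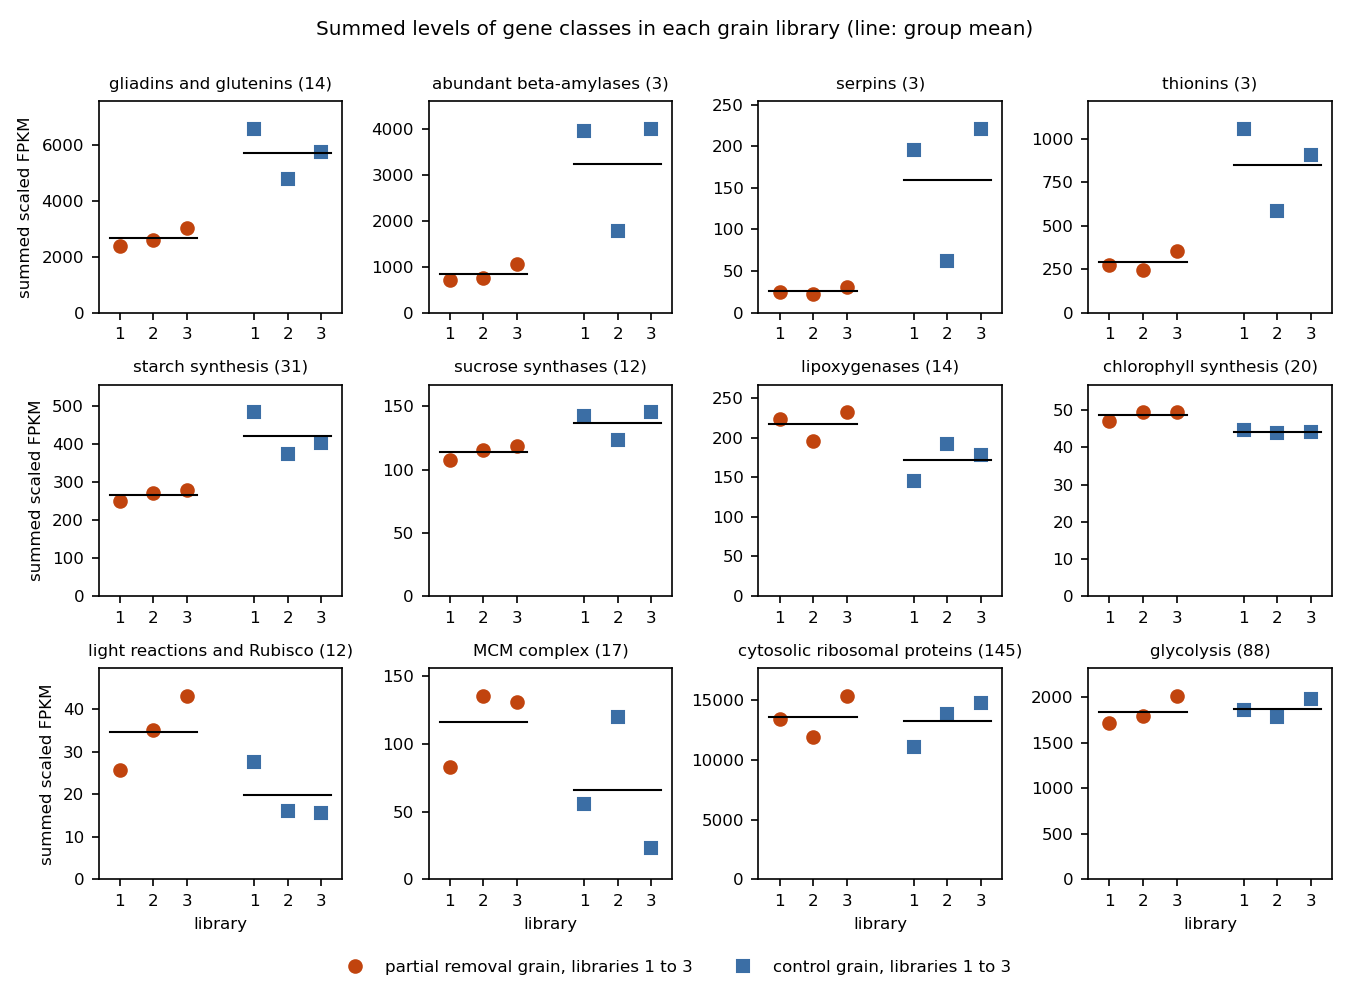
Summed scaled FPKM of 12 groups of loci in each library, partial removal on the left (circles) and control on the right (squares), with group means as lines and the number of loci in brackets. The partial removal libraries lie below all controls for gluten proteins, beta-amylases, serpins, thionins, starch synthesis and sucrose synthases, above all controls for lipoxygenases and chlorophyll synthesis, and overlap in the other 4 panels.

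Upstream of starch, sucrose synthase cleaves imported sucrose. The most abundant of 12 loci, MSTRG.51537 on 5DL, stood at 23.4, 28.0 and 31.0 scaled FPKM after partial removal, against 45.1, 34.5 and 44.0 in controls (-0.57 ± 0.167 SE, adjusted p = 0.536). The list summed to 108, 115 and 118, against 142, 124 and 145 in controls, with no overlap, but its median of -0.19 turned to 0.0437 without scaling, where the median of all named loci moved to 0.186. SWEET sugar exporters, of which there were 20, had a median of -0.09, and 3 of them were lower without overlap. The largest of these differences was that of MSTRG.48566 on 5BL, at 9.45, 8.17 and 9.78, against 17.5, 14.4 and 30.8 in controls (-1.04 ± 0.264 SE, adjusted p = 0.416). The most abundant sugar transporter, the SWEET locus MSTRG.76081, overlapped, at 31.4, 18.7 and 46.5, against 21.8, 28.9 and 16.7 in controls.

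In the cell wall lists a pectin acetylesterase, an enzyme that removes acetyl groups from pectin, was lower in each partial removal library (MSTRG.32621, 3DL: 6.35, 7.85 and 5.23 scaled FPKM, against 24.3, 14.1 and 27.5 in controls, -1.58 ± 0.260 SE, adjusted p = 0.202). The copy on 3B (MSTRG.28877), named after its values were seen, stood at 12.2, 14.8 and 12.9, against 49.6, 27.0 and 42.0 in controls (-1.46 ± 0.227 SE, adjusted p = 0.2). The 33 loci of pectin enzymes had a median of -0.06, with 5 lower (15.2%) and 2 higher (6.06%) without overlap, the higher share being near that of all named loci.

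Autophagy loci, which serve the breakdown of cell contents in vacuoles, lay slightly lower as a class. Of 41, 8 lay above 0, 8 were lower and 2 higher without overlap, and the median was -0.17, which became 0.0362 without scaling and -0.15 relative to all named loci in that setting. MSTRG.15394 on 2BL stood at 8.63, 10.3 and 12.1 scaled FPKM after partial removal, against 15.1, 12.5 and 14.98 in controls (-0.43 ± 0.147 SE, adjusted p = 0.612). The abundant MSTRG.10707 on 2AL overlapped, at 40.7, 44.8 and 50.2, against 48.2, 53.5 and 74.5 in controls. Autophagy-related protein 13b (MSTRG.40183), named after its values were seen, went the other way in the fit without control library 1. There limma called it as higher (log2 1.72, adjusted p = 0.0494). The lowest adjusted p of the list was that of autophagy-related protein 8i (MSTRG.44628, 5AL), of the family of tags that mark autophagosomes, at 1.39, 1.19 and 1.45, against 3.46, 3.02 and 4.497 in controls (-0.98 ± 0.139 SE, adjusted p = 0.183).

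In the other direction, lipoxygenases, which oxygenate fatty acids and can feed the synthesis of jasmonate, were higher in small steps. All 14 loci lay above 0 and 5 were higher without overlap, with a median of 0.19. They summed to 223, 196 and 232 scaled FPKM after partial removal, against 145, 192 and 179 in controls, so the groups were separated by a narrow gap. MSTRG.53511 on 5DL stood at 84.0, 71.6 and 84.8, against 43.3, 66.3 and 66.2 in controls (0.47 ± 0.210 SE, adjusted p = 0.724). MSTRG.40415 on 4BS, the most abundant, overlapped, at 87.8, 76.4 and 90.3, against 65.5, 82.3 and 65.6 in controls. The whole jasmonate list of 21 loci had 19 above 0 and a median of 0.18, and none of its members outside the lipoxygenases had groups without overlap.

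Green tissue loci also lay higher, at low levels. All 12 loci of light reactions and Rubisco lay above 0, with a median of 0.33, and 2 were higher without overlap. The list matched 126 named loci, of which only these 12 passed the filter. Reaching an FPKM of 1 in the 3 partial removal libraries alone was enough to pass, so counts among these 12 may be shaped by the filter. The most abundant, a Rubisco small chain (MSTRG.44587, 5AL), the carbon-fixing enzyme's smaller subunit, stood at 6.44, 5.33 and 10.3 scaled FPKM after partial removal, against 6.83, 2.68 and 2.91 in controls. The sums of the 12 loci were 25.6, 35.1 and 43.2, against 27.7, 16.0 and 15.6 in controls, where control library 1 alone reached into the range of the partial removal libraries. Without that library 7 of the 12 were higher without overlap, where the share over all named loci is 10.8%. That library was left out after its values were seen, and its overlap with the other group was the reason. The count without it is therefore no support for a difference.

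Chlorophyll synthesis, with 20 loci, summed to 47.1, 49.4 and 49.4 after partial removal, against 44.8, 43.7 and 44.0 in controls. Its median was 0.11, 15 loci lay above 0, and 2 were higher (10%) and none lower without overlap. The most abundant, glutamyl-tRNA reductase (MSTRG.3863, 1BL), overlapped, at 4.61, 5.03 and 5.97, against 5.40, 4.88 and 5.71 in controls. Chlorophyll synthase (MSTRG.8827, 1DL), the last step of the pathway, stood at 5.44, 4.66 and 4.99, against 4.06, 3.95 and 3.50 in controls (0.32 ± 0.104 SE, adjusted p = 0.583). A chlorophyll a-b binding protein, a defining marker of green tissue (MSTRG.48230, 5BL, picked after its values were seen), stayed at 0.441 to 1.13 over all 6 libraries. The part of green tissue in these differences was not tested.

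Loci of the cell cycle and DNA replication lay higher, mostly with groups that overlapped, while histones had a median below 0. The 109 histone loci had a median of -0.114, with 38 above 0. Without overlap 1 was higher (0.917%) and 5 were lower (4.59%), both below the shares over all named loci, and their sums overlapped. The histone median was 0.0677 without control library 2. The 17 loci of the MCM complex, the helicase that opens DNA for replication, all lay above 0 with a median of 0.83, yet none had groups without overlap. They summed to 82.9, 136 and 131 scaled FPKM after partial removal, against 55.6, 120.0 and 23.5 in controls, so the control libraries differed among themselves more than the groups. MCM3 (MSTRG.522, 1AL) stood at 9.55, 13.9 and 13.2, against 7.09, 14.6 and 4.59 in controls. The 49 other loci of the cell cycle list had a median of 0.0783, with 5 higher and none lower without overlap, among them the replication clamp PCNA (MSTRG.38107, 4BL) at 8.72, 6.81 and 9.06, against 6.45, 6.41 and 6.24 in controls.

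Auxin response factors, the transcription factors at the end of auxin signalling, lay higher by small amounts. Of 43 loci, 35 lay above 0, 13 were higher and 1 lower without overlap, and the median was 0.11. They summed to 214, 200.2 and 217 scaled FPKM after partial removal, against 197, 189.9 and 183 in controls. The largest of these differences was that of MSTRG.65156 on 7AL, at 6.54, 5.46 and 6.20, against 4.58, 4.45 and 4.45 in controls (0.36 ± 0.101 SE, adjusted p = 0.491). The auxin list as a whole, with 87 loci, had a median of 0.0547, with 15 higher and 4 lower without overlap. Its sums overlapped, at 488, 418 and 437, against 369, 520 and 531 in controls. Without control library 1, left out after the values were seen, these sums were lower without overlap. The most abundant locus of the list, an auxin-repressed protein (MSTRG.42504, 4DS), overlapped, at 114, 64.2 and 60.3, against 38.1, 146 and 174 in controls.

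The general machinery of the cell stood near the median of all named loci. Glycolysis (88 loci) had a median of 0.00329, mitochondrial respiration (32 loci) 0.00707, the proteasome (70 loci) -0.0136 and cytosolic ribosomal proteins (145 loci) 0.0499. The median of cytosolic ribosomal proteins was -0.0704 without control library 1. Within translation a single locus of elongation factor 1-alpha, which brings tRNAs to the ribosome, was far from its family. MSTRG.13932 on 2AS stood at 381, 327 and 445 scaled FPKM after partial removal, against 135, 158 and 170 in controls (1.31 ± 0.228 SE, adjusted p = 0.223), with no overlap. The 13 loci of this factor had a median of 0.15 and their sums overlapped.

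Over all 1003 GO terms with at least 10 loci, 546 medians lay above 0. Summed levels were higher without overlap for 34 terms and lower for 89. The highest medians, picked as extremes, were those of the MCM complex (0.83), DNA replication initiation (0.80), the THO complex (0.80), positive regulation of ubiquitin protein ligase activity (0.30) and sister chromatid cohesion (0.30). The lowest were those of nutrient reservoir activity (-0.46), amyloplast (-0.41), starch biosynthetic process (-0.40), xylan catabolic process (-0.31) and extracellular space (-0.30). Amyloplast held 16 loci, 7 of them lower without overlap, and starch biosynthetic process 28 loci, 13 of them lower. The THO complex held 21 loci, and its sums overlapped at 99.7, 145 and 142 scaled FPKM after partial removal, against 72.8, 134 and 47.2 in controls.

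By position, the A, B and D subgenomes held 11129, 11370 and 11277 named loci, and their median differences were -0.00798, -0.0066 and -0.00765. Over 41 chromosome arms the medians lay between -0.0306 and 0.011. By abundance, 12 of the 50 most abundant loci were lower without overlap (24%) and 1 was higher (2%), a group picked after the values were seen.

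The effect of partial removal in grain was set against that in leaf in a single fit of 12 libraries, over 26061 named loci measured in both tissues. Limma called 20 of them for the difference between the effects (0.0767%), 15 with a higher effect in grain than in leaf and 5 with a lower effect. The lipoxygenase MSTRG.11562 had a difference of 0.17 in grain and of -1.69 in leaf (grain minus leaf 1.86 ± 0.202 SE, adjusted p = 0.00788). An aldose 1-epimerase (MSTRG.18854), which converts the ring forms of sugars, lay at -0.54 in grain and -2.68 in leaf. Of the classes measured in both tissues, 3 picked after their medians were seen stood on opposite sides of 0, with 23 starch synthesis loci at -0.26 in grain and 0.36 in leaf, 15 jasmonate loci at 0.17 in grain and -0.37 in leaf, and 41 autophagy loci at -0.17 in grain and 0.20 in leaf. Others stood on the same side, among them 12 loci of light reactions and Rubisco at 0.33 in grain and 0.53 in leaf, 20 of chlorophyll synthesis at 0.11 in grain and 0.30 in leaf, and 14 sugar transporters at -0.05 in grain and -0.30 in leaf. Apart from MSTRG.11562, no locus of the starch synthesis, jasmonate and autophagy lists was called for the difference. The count was 68 without control leaf library 3, 31 without control grain library 1, 12 without leaf partial removal library 3, 10 without leaf partial removal library 2, 11 without control grain library 3, and 8, 7 and 11 without grain partial removal libraries 1, 2 and 3. Without scaling 3012 loci were called, 2987 with a higher and 25 with a lower effect in grain than in leaf.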

How the data were processed

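The authors deposited gene FPKM for 18 libraries, made from paired-end reads of poly(A) RNA with HISAT, StringTie and edgeR, per the submitters' processing notes, without versions. The genome build, annotation and strand are not given in the sources used here. Depth was unknown because read counts were not analysed here, and precision rests on the spread between libraries. Chromosome arms come from the gene names. Using limma 3.58.1 in R 4.3.3, the 43606 loci that reached an FPKM of 1 in 3 or more of the 6 grain libraries were fitted as log2(scaled FPKM + 1), with a trend on mean level and Benjamini-Hochberg adjustment over all of them. The 8280 loci without a name stayed in the fit, and 0 of them were called. Libraries were scaled by their median ratio to geometric means of the 79244 loci above 0 in all 6. The script was tested on simulated data.

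The members and lists were chosen with earlier results of these data known. Lists matched descriptions, available for 6715 of the named loci, while GO terms covered 22976. Of called loci with a description, the 12 largest rises and falls with a higher group mean of at least 5 were named. From each list came the most abundant locus and the largest non-overlapping rise and fall. GO terms gave the 5 highest and lowest medians.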

Additional observations from a re-analysis of the deposited data

Results flagged for a closer look

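The effect of partial removal differed between grain and leaf for 20 named loci by a test of the difference itself in limma. The effect in grain was higher than that in leaf for 15 of them and lower for 5. At an unadjusted p under 0.05 there were 3321. The largest difference was that of MSTRG.25, which has no description and lay at -0.50 in grain and 5.81 in leaf (grain minus leaf -6.31 ± 0.563 SE, adjusted p = 0.00272). MSTRG.14168, also without a description, lay at -0.76 in grain and 4.26 in leaf. Long-chain-alcohol oxidases MSTRG.3732 and MSTRG.274 lay at 0.17 and 0.33 in grain and at -1.78 and -1.88 in leaf. Receptor like protein kinase S.2 (MSTRG.46126) lay at 0.061 in grain and -1.10 in leaf. In each of these the larger departure from 0 was that in leaf.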

How the results depend on the processing

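Of the settings tried, no filter on low values left 8 of the 14 calls, FPKM of at least 5 left 4, the library number as a replicate block left 4, and using only named loci in scaling, fit and adjustment gave 22, with all 14 among them. Leaving out each library gave 10 to 50. Other settings gave 11 to 19. The fit of all 9 grain libraries also gave 14, of which 7 were the same loci. Same-numbered libraries had correlations of their deviations of -0.0168, -0.0406 and 0.0799, so no pairing was assumed. For the difference between grain and leaf, 20 loci were called, against 3012 without scaling, 50 with quantile normalization, 10 with a pseudocount of 0.1, 7 with FPKM of at least 5, 8 with the replicate block and 7 to 68 with a library left out. The cause was not tested. Medians of gluten proteins, serpins with inhibitors, starch synthesis, light reactions, chlorophyll synthesis, jasmonate and auxin kept their sign in all 14 settings, but their size moved: gluten proteins were at -0.86 with quantile normalization, serpins with inhibitors at -2.30 and light reactions at 0.74 with FPKM of at least 5, starch synthesis at -0.21 without control library 1 and -0.13 without scaling, and chlorophyll synthesis at 0.0694 without control library 3. Without scaling, chlorophyll synthesis was at 0.27, jasmonate at 0.32 and auxin at 0.26, where all named loci were at 0.186, and auxin was at 0.0314 without control library 1. Starch breakdown changed sign in 6 settings. Without control library 1, 10.8% of named loci were higher and 16.5% lower without overlap, an alternative chosen after seeing the data. Starch synthesis then had 2 higher and 15 lower, gluten proteins 1 and 8, autophagy 5 and 13, auxin 24 and 12, embryo and aleurone markers 1 and 6, chlorophyll synthesis 6 and 0, and jasmonate 7 and 0.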

Other observations

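Groups of loci not described above were found among the GO terms, picked by their values. Inositol tetrakisphosphate 1-kinase activity, an annotation of enzymes that can act on the way to phytate, the phosphate store of seeds, held 10 loci with a median of -0.23, 4 of them lower without overlap. They summed to 33.1, 30.7 and 36.4 scaled FPKM after partial removal, against 44.0, 43.0 and 45.0 in controls, so the sums did not overlap. Cellular response to nitrogen levels held 11 loci with a median of -0.24 and 5 of them lower without overlap. Guanyl-nucleotide exchange factor activity, of proteins that switch small GTPases on, held 10 loci, all above 0, with a median of 0.25 and 4 higher without overlap. Phosphoenolpyruvate carboxylase activity, of the enzyme that refixes carbon dioxide into organic acids, held 10 loci with a median of -0.25, 5 of them lower without overlap. The sums of these 10 loci overlapped, at 80.3, 72.9 and 85.2 after partial removal, against 102.6, 84.1 and 98.5 in controls.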
